A study of Mus musculus with 22 samples.

Results

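The MYC network consists of transcription factors that share MAX or MLX as a dimerisation partner and bind the E-box sequence CACGTG. The 9 genes described here were chosen by name, with no measured value used: Myc, Max, Mxd1, Mxd3, Mxd4, Mxi1, Mnt, Mlx and Mga. All 9 were found among the 11208 genes of the table, and all 9 passed the filter on low values. Polyadenylated RNA had been sequenced from NIH/3T3 cells, an immortalised mouse embryonic fibroblast line. Into these cells a construct that doxycycline switches on had been stably integrated. It expressed the cell-cycle transcription factor E2F1 in the E2F1 line and was an empty vector in the EV line. All 22 libraries came from cells starved for 48 h in 0.25% serum, which brings fibroblasts to a G0-like rest. The E2F1 line was collected at 0, 2, 6 and 12 h of 500 ng/ml doxycycline. EV cells were taken at 0, 2, 6 and 12 h of the same dose, and also at 2, 6 and 12 h of 10% serum. Each of these 11 groups held 2 libraries. Serum was added to the EV line alone, and its serum and doxycycline comparisons share the EV 0 h libraries. The labels do not say whether a line was 1 clone or a pool, nor from which species the E2F1 sequence came.

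MYC, as a heterodimer with MAX, recruits acetyltransferase complexes and drives genes of ribosome synthesis, metabolism and the cell cycle. MXD proteins (MXD1, MXD3, MXD4 and MXI1) and MNT also need MAX, but bring SIN3 and histone deacetylases to the same E-boxes and repress. MGA pairs with MAX inside a Polycomb complex, PRC1.6, that also contains E2F6. MLX pairs with MXD1, MXD4, MNT and the glucose-sensing MONDO factors. In textbook accounts Myc is low in resting fibroblasts and is an immediate target of serum, while MXD genes mark withdrawal from the cycle, with the exception of Mxd3, which is known as an S-phase gene and E2F1 target.

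Promoter sequence was available for 8 of the 9 genes, in 10 entries of 300 bases, from 250 before to 50 after a transcript start (RefSeq, GRCm38.p6). The letters CACGTG, which read the same on both strands, were found in the promoters of 4 of them. These 4 windows of 30 bases are shown because they carry, in the genes of the network itself, the sequence that the encoded proteins bind. Capitals mark the E-box.
Mxd4, chr5:34187912-34187941, minus strand: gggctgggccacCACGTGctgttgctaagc
Mnt, chr11:74830789-74830818, plus strand: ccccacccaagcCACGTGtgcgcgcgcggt
Mlx, chr11:101087238-101087267, plus strand: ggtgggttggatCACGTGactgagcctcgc
Max, chr12:76962234-76962263, minus strand: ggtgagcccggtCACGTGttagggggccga
The first base of the E-box lay at -219 in Mxd4, -123 in Mnt, -40 in Mlx and -3 in Max, counted from the RefSeq transcript start. The last 30 bases of the Max entry were not found in a GENCODE M21 transcript of Max. Its position therefore holds for the RefSeq start alone. Of 32851 mouse promoters of the same length, 2349 (7.15%) contain CACGTG. The 4 genes did not move alike: in serum Max and Mlx rose while Mnt and Mxd4 fell, as detailed below.

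A second search used the E2F core letters TTCCCGC and their close variants TTCGCGC as well as TTGCCGC and further TTGGCGC, each on both strands, and no match overlapped an E-box. It found them in 2 of the 8 genes, in Mxd3 and in the second of the Mxi1 entries but no other Mxi1 entry. These windows are shown because they hold the only matches. Mxd3 and Mxi1 rose in the E2F1 line, but Mnt, which had no match, also rose there at 6 h. A link between a match and a change was not tested. Capitals mark the E2F core letters.
Mxd3, chr13:55329849-55329878, minus strand: gttcagcctggGCGGGAAgaggcgggctgg
Mxi1, chr19:53329412-53329441, plus strand: cggggcgggtcTTGCCGCtgctccggtccc
The match begins at -136 in Mxd3 and at 11 bases after the start in Mxi1. The same letters occur in 3145 promoters (9.57%). Both motifs were picked after the sequences had been seen, and a match is a description of the sequence and not evidence of binding.

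Library totals ran from 34014608 to 46057140 normalized counts, highest in the serum 2 h libraries. E2f1 read 1703 and 1637 normalized counts at 0 h in the E2F1 line, 1535 and 1755 at 2 h, 3806 and 3602 at 6 h, and 2683 and 2845 at 12 h. It was therefore above rest at 6 h (log2 change 1.15, limma adjusted p = 9.61e-08) and at 12 h (0.73, adjusted p = 1.65e-05) but not at 2 h (-0.02, adjusted p = 0.946). E2f1 also moved with serum in the EV line. There it read 1635 and 1655 at 0 h, 802 and 740 at 2 h, 1186 and 956 at 6 h, and 4615 and 4247 at 12 h. The serum changes were -1.09, -0.63 and 1.43 (adjusted p = 5.76e-08, 6.38e-05 and 4.12e-09). At 12 h the serum libraries were thus above those of the E2F1 line. Of 9 fibroblast markers 9 were in the table, against 0 of 4 epithelial, 0 of 3 immune and 0 of 3 endothelial markers. In the E2F1 line 8 of the 9 fibroblast markers were lower at 12 h, where 29.7% of all genes were, among them Pdgfrb (-1.24, adjusted p = 1.58e-08). At 12 h of serum 5 were lower and 2 higher, where 29.7% and 36% of all genes were. For the E2F1-line change minus the EV-line change at 12 h, 5 were lower and none higher. Of all genes 50.5% passed there in either direction. Ddx3y, a Y-linked gene of the cell line, stood between 316 and 580 normalized counts in the E2F1 line and between 4 and 9 at EV 0 h, but at 103 and 71 at EV 2 h of doxycycline and at 132 and 170 at EV 2 h of serum. With doxycycline Ddx3y read 31 and 18 at EV 6 h and 9 and 4 at EV 12 h. With serum it read 48 and 35 at EV 6 h and 29 and 19 at EV 12 h. Whether the EV libraries hold RNA of other cells or of other libraries was not tested. This bears on every EV value at 2 h given below, with serum or with doxycycline. It bears too on those at 6 h and at 12 h of serum, where Ddx3y was lower than at 2 h but above EV 0 h. Nothing in the labels says that the paired libraries of a group came from separate cultures, so p-values measure the spread between these libraries, which may be technical.

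Myc and Mxd4 were the most abundant network transcripts at rest. Per kilobase of exon, Myc stood at 889 ± 9.11 normalized counts in the E2F1 line and 660 ± 37.0 in the EV line (SD, n = 2), and Mxd4 at 711 ± 28.6 and 792 ± 28.2. Mnt followed at 491 ± 19.4 and 541 ± 66.5, then Max at 378 ± 18.3 and 348 ± 15.1 and Mlx at 378 ± 17.0 and 317 ± 35.7, a pair that did not differ beyond its spread. Mga stood at 286 ± 14.6 and 288 ± 5.07, Mxd3 at 209 ± 8.36 and 139 ± 94.0, Mxi1 at 206 ± 11.3 and 278 ± 9.33, and Mxd1 was lowest at 64.2 ± 6.40 and 55.3 ± 5.60. Mxd4 was thus the leading MXD transcript of resting cells in both lines. Differences between the lines at 0 h ran from -0.43 for Mxi1 (limma adjusted p = 0.056) to 0.77 for Mxd3 (adjusted p = 0.187). None of the 9 passed 0.05, against 15% of all genes, and 2 had an unadjusted p under 0.05. Myc was 0.43 higher in the E2F1 line (adjusted p = 0.0628). Other settings gave calls here. Mxi1 passed after quantile normalization (-0.50, adjusted p = 0.0189) and with only the compared groups fitted (adjusted p = 0.0492), and Myc with equal library totals (0.47, adjusted p = 0.04) and with only the compared groups (adjusted p = 0.0401). The Mxd3 difference was 1.52 (adjusted p = 0.0124) without EV 0 h replicate 2 and 0.023 without EV 0 h replicate 1.

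**Figure D1:**
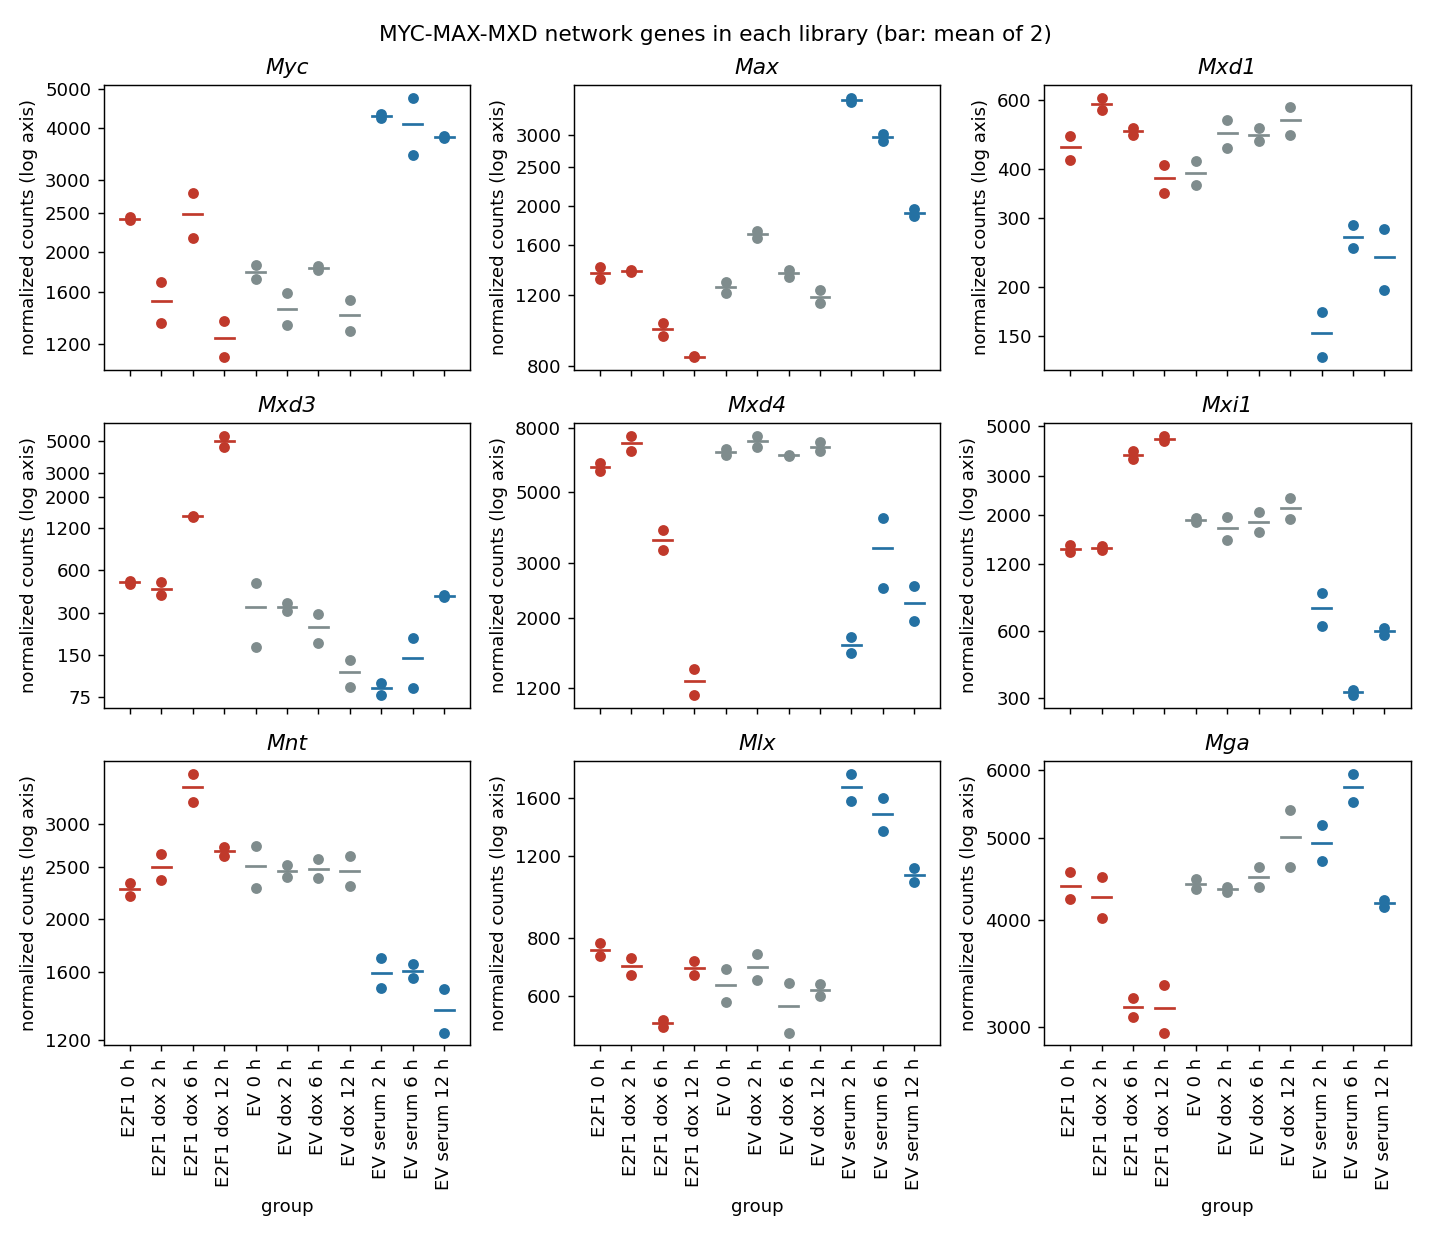
Normalized counts of the 9 network genes in each of the 22 libraries (points) with group means (bars), on log axes that differ between panels. The x axis gives the group: red, E2F1 line with doxycycline; grey, EV line with doxycycline; blue, EV line with serum. Mxd3 climbs to 4547 and 5490 in the E2F1 line at 12 h, while Mxd4 falls to 1147 and 1387; in serum Myc, Max and Mlx lie above all doxycycline libraries.

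Nearly the whole network moved with serum. Changes are on the log2(value + 1) scale against 0 h of the same line, and a gene is said to rise or fall where the limma adjusted p, over all 11208 genes, was under 0.05. At 2 h, 3 of the 9 genes rose, where 37.5% of all genes did, and 5 fell, where 33.5% did. At 6 h 4 rose (36.5% of all genes) and 5 fell (31%), and at 12 h 3 rose (36%) and 4 fell (29.7%). Since most genes of the table moved, the number of network genes that did so is no result of its own, and what follows concerns direction and size. With E2F1 induction none rose at 2 h (0.865% of all genes) and 1 fell (0.99%), 3 rose (28.8%) and 4 fell (22.9%) at 6 h, and 2 rose (31.8%) and 4 fell (29.7%) at 12 h. In the EV line with doxycycline 1 gene rose at 2 h (4.93%) and none fell (2.43%), and none passed at 6 h (0.134%) or 12 h (4.17%). At an unadjusted p under 0.05 the count was 0 at 6 h and 3 at 12 h. Between successive times, 6 genes moved from 6 to 12 h in the E2F1 line (35.3% of all genes), 4 from 2 to 6 h of serum (48.5%) and 6 from 6 to 12 h of serum (39.9%).

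Myc (chr15:61985391-61990374, GRCm38), the activator, rose with serum and was below its own 0 h level at 12 h in the E2F1 line. In the EV line it read 1723 and 1865 normalized counts at 0 h and rose with serum to 4343 and 4251 at 2 h, 4745 and 3449 at 6 h, and 3798 and 3834 at 12 h. Every serum library was above every resting library. The log2 rise was 1.26 ± 0.15 at 2 h (SE, limma adjusted p = 6.09e-07), 1.17 at 6 h (adjusted p = 1.94e-06) and still 1.09 at 12 h (adjusted p = 5.69e-06), between 2.13-fold and 2.4-fold. In the E2F1 line Myc read 2399 and 2434 at 0 h, 1348 and 1700 at 2 h, 2791 and 2166 at 6 h, and 1365 and 1116 at 12 h. It was thus low at 2 h, back among the resting values at 6 h, and low again at 12 h, when both libraries lay below both resting ones. The 12 h fall was -0.97 ± 0.15 (adjusted p = 2.43e-05, 1.96-fold), and the step from 6 to 12 h was -0.99 (adjusted p = 0.000106). The 2 h fall of -0.67 (adjusted p = 0.0275) no longer passed without any single one of the 4 libraries, with adjusted p from 0.0551 to 0.272.

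The EV line with doxycycline gives Myc without the E2F1 construct. It read 1330 and 1591 at 2 h, 1815 and 1851 at 6 h, and 1531 and 1291 at 12 h, changes of -0.30 (limma adjusted p = 0.244), 0.03 and -0.35 (adjusted p = 0.24) against 0 h. At 12 h these EV libraries overlapped those of the E2F1 line, which read 1365 and 1116. The E2F1-line change minus the EV-line change was -0.37 at 2 h (adjusted p = 0.767), -0.01 by 6 h (adjusted p = 0.983), and -0.62 by 12 h (adjusted p = 0.0225). The 12 h difference lost its call without E2F1 0 h replicate 2 (limma adjusted p = 0.0559), E2F1 12 h replicate 2 (0.107), EV 0 h replicate 1 (0.0653) or EV 12 h replicate 1 (0.0994).

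Max (chr12:76937269-76962201), the obligate partner, and Mlx (chr11:101087277-101092207), its relative, both rose in serum. Max read 1215 and 1292 at EV 0 h, then 3713 and 3627 at 2 h, 2908 and 3014 at 6 h, and 1885 and 1965 at 12 h of serum. The level peaked at 2 h and declined after it, with all serum libraries above rest. The log2 rise was 1.55 ± 0.08 at 2 h (limma adjusted p = 7.13e-12), 1.24 at 6 h (adjusted p = 2.48e-10) but only 0.62 by 12 h (adjusted p = 2.07e-06), and the step down from 6 to 12 h passed (-0.62, adjusted p = 6.58e-06). The step from 2 to 6 h (-0.31, adjusted p = 0.00342) depended on scaling: it was -0.18 (adjusted p = 0.0797) after quantile normalization and -0.15 (adjusted p = 0.137) with equal totals. Mlx read 584 and 685 at EV 0 h and 1801 and 1576, 1598 and 1353, and 1131 and 1053 at 2, 6 and 12 h of serum, again with no overlap. Its rises were 1.41, 1.22 and 0.79 (adjusted p = 2e-08, 2.02e-07 and 4.2e-05). Mlx shares 385 bases, 19.26% of its exons, with Psmc3ip on the opposite strand, and use of strand in the counting is not given in the sources used here, so reads of the pair cannot be told apart there. The serum changes of Psmc3ip itself were 0.32, 0.42 and 1.13 at 2, 6 and 12 h (adjusted p = 0.142, 0.0578 and 4.28e-05), the last larger than the Mlx rise, and its part in the Mlx values was not tested.

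Max went the other way with E2F1. It read 1405 and 1312 at 0 h, 1386 and 1372 at 2 h, 949 and 1021 at 6 h, and 844 and 842 at 12 h. The 6 h and 12 h libraries all lay below rest, by -0.46 ± 0.08 (limma adjusted p = 9.23e-05) and -0.69 ± 0.08 (adjusted p = 6.99e-07). Mlx read 731 and 779 at 0 h, 532 and 516 at 6 h, and 714 and 667 at 12 h, so that it dipped at 6 h (-0.53, adjusted p = 0.00277) and was -0.13 from rest at 12 h (adjusted p = 0.407). The return from 6 to 12 h (0.40, adjusted p = 0.0254) did not pass without any single one of its 4 libraries. In the EV line Mlx read 640 and 501 after 6 h of doxycycline, where its resting libraries read 584 and 685, a change of -0.16. Once this was taken off the 6 h dip, -0.37 remained, which did not pass (limma adjusted p = 0.134). Omitting single libraries moved that difference between -0.54 and -0.19. Max was also the only network gene to pass in the EV line with doxycycline, at 1733 and 1664 at 2 h (0.44, adjusted p = 0.00309). That call was lost, with adjusted p = 0.055, when only the compared groups were fitted, and at 6 h Max was back at 1332 and 1387.

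Mnt (chr11:74830920-74845725), the broadly expressed MAX-binding repressor, fell with serum and rose for a time with E2F1. It read 2723 and 2288 at EV 0 h and 1694 and 1496, 1561 and 1657, and 1237 and 1486 at 2, 6 and 12 h of serum, all below both resting libraries. The falls were -0.65, -0.63 and -0.88 (limma adjusted p = 3.52e-05, 5.47e-05 and 1.5e-06). With E2F1 it read 2209 and 2336 at 0 h, 3709 and 3288 at 6 h, and 2616 and 2719 at 12 h, a rise of 0.62 ± 0.11 at 6 h (adjusted p = 0.00013). Its 12 h change of 0.23 did not pass (adjusted p = 0.0747, or 0.0421 with only the compared groups fitted). The step down from 6 to 12 h was -0.39 (adjusted p = 0.0106), and it was lost without replicate 1 at 6 h (adjusted p = 0.109) or at 12 h (adjusted p = 0.0634).

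Mga (chr2:119897228-119969581), the scaffold of PRC1.6, moved by at most 0.48 from 0 h in any group in the main fit. Among the other 6 settings its change in the E2F1 line reached -0.72 at 6 h and -0.68 at 12 h. With E2F1 induction it read 4236 and 4553 at 0 h, 3081 and 3246 at 6 h, and 3362 and 2953 at 12 h, with no overlap, and it fell by 0.47 and 0.48 on the log2 scale (limma adjusted p = 0.000237 and 0.000141). In serum it read 5179 and 4695 at 2 h, 5513 and 5949 at 6 h and 4231 and 4149 at 12 h, against 4468 and 4358 at EV 0 h. The 6 h rise of 0.38 (adjusted p = 0.0011) depended on scaling: it was 0.09 (adjusted p = 0.376) after quantile normalization and 0.16 (adjusted p = 0.124) with libraries set to equal totals. The 2 h value of 0.16 (adjusted p = 0.115) turned to -0.22 (adjusted p = 0.0274) and -0.21 (adjusted p = 0.0408) under the same scalings, so no direction is given for it. Setting equal totals moved the median of all genes at 2 h of serum from 0.03 to -0.34.

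**Figure D2:**
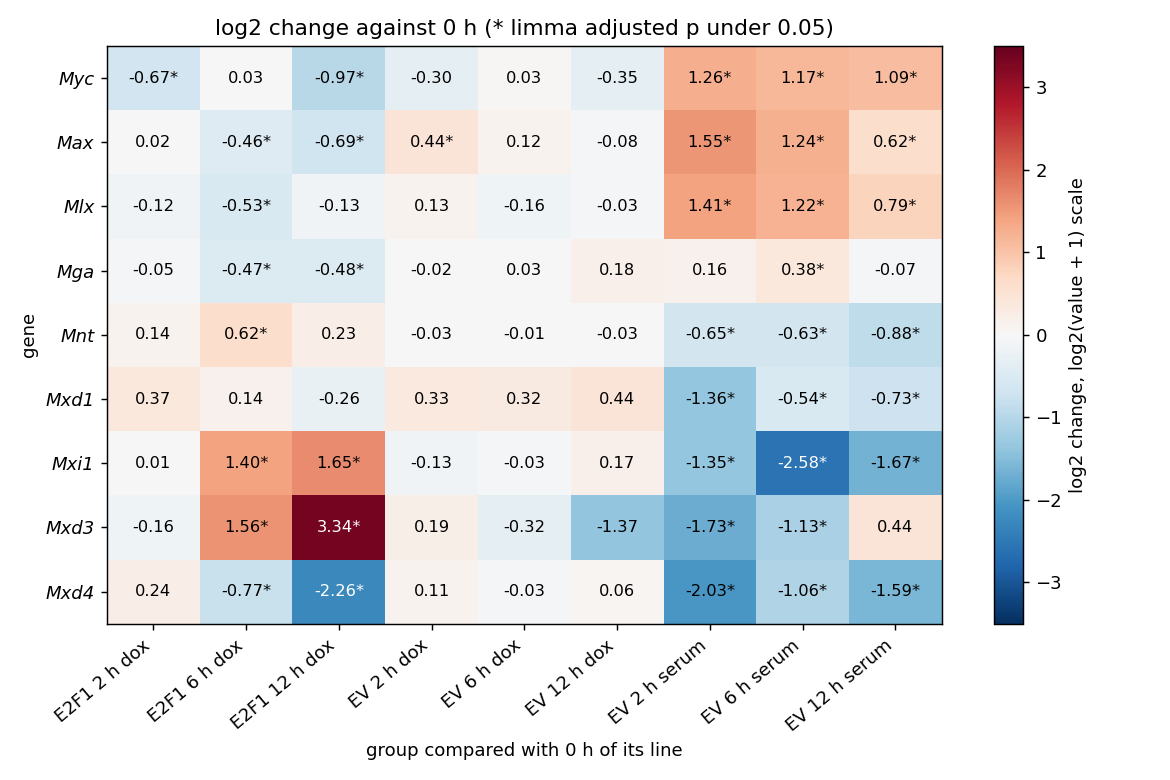
Log2 change of each network gene (y axis) in each group against 0 h of its line (x axis), on the log2(value + 1) scale, with red for higher and blue for lower. Stars mark a limma adjusted p under 0.05. Myc, Max and Mlx are red with serum while Mnt and Mxi1 are blue there and red in the E2F1 line; the Mga values in serum at 2 and 6 h change with scaling.

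The MXD repressors split by gene in the E2F1 line. Mxd3 (chr13:55325168-55329823), known for expression in S phase, read 480 and 508 at 0 h, 398 and 493 at 2 h, 1460 and 1456 at 6 h, and 4547 and 5490 at 12 h. Both later groups lay far above rest. The log2 rise was 1.56 ± 0.38 at 6 h (limma adjusted p = 0.00246, 2.95-fold) and 3.34 ± 0.38 at 12 h (adjusted p = 6.78e-07, 10.1-fold), and the 6 to 12 h step of 1.78 passed (adjusted p = 0.00173). Mxi1 (chr19:53310518-53375810), an MXD family repressor, read 1463 and 1354 at 0 h, 1390 and 1451 at 2 h, 3858 and 3565 at 6 h, and 4541 and 4278 at 12 h. It rose by 1.40 ± 0.15 (adjusted p = 3.42e-07) and 1.65 ± 0.15 (adjusted p = 3.15e-08), most of it by 6 h, since the later step was 0.25 (adjusted p = 0.2, or 0.0461 with only the compared groups fitted).

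Mxd4 (chr5:34173883-34187720), the leading MXD transcript of rest, fell. It read 5859 and 6202 at 0 h, 7541 and 6753 at 2 h, 3291 and 3795 at 6 h, and 1147 and 1387 at 12 h in the E2F1 line. The fall was -0.77 ± 0.17 at 6 h (limma adjusted p = 0.000901), reaching -2.26 ± 0.17 at 12 h (adjusted p = 3.21e-09, 4.78-fold), with a 6 to 12 h step of -1.49 (adjusted p = 7.73e-06). Mxd1 read 486 and 422 at 0 h, 508 and 489 at 6 h, and 410 and 348 at 12 h. Its changes of 0.14 (adjusted p = 0.544) and -0.26 (adjusted p = 0.221) did not pass.

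All 4 MXD genes fell at 2 h of serum. Mxd4 went from 6884 and 6546 at EV 0 h to 1549 and 1749 at 2 h, 2495 and 4155 at 6 h, and 1957 and 2530 at 12 h, falls of -2.03, -1.06 and -1.59 (limma adjusted p = 4.02e-09, 2e-05 and 1.91e-07). The 6 h libraries were higher than the 2 h ones and far apart (step 0.97, adjusted p = 0.000115). Mxi1 went from 1943 and 1853 to 628 and 884, 309 and 324, and 620 and 576. It was lowest at 6 h, at -2.58 ± 0.15 (adjusted p = 6.63e-11, 5.98-fold), against -1.35 at 2 h (adjusted p = 1.78e-07). By 12 h the fall was -1.67 (adjusted p = 2.4e-08).

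Mxd1 (chr6:86647042-86669161), known as a gene of terminal differentiation, went from 363 and 419 to 133 and 173 at 2 h, 251 and 287 at 6 h, and 281 and 197 at 12 h of serum. The falls were -1.36 (limma adjusted p = 2.32e-06), -0.54 (adjusted p = 0.0142) and -0.73 (adjusted p = 0.00188), with no serum library reaching the resting values. The 6 h call was lost after quantile normalization (-0.25, adjusted p = 0.234) and without EV 0 h replicate 2 (adjusted p = 0.102) or serum 6 h replicate 1 (adjusted p = 0.094), and the 12 h call without serum 12 h replicate 2 (-0.47, adjusted p = 0.0527). Mxd3 had uneven resting libraries in the EV line, 171 and 486, followed by 95 and 78 at 2 h, 87 and 197 at 6 h, and 386 and 398 at 12 h of serum. It fell at 2 h (-1.73 ± 0.38, adjusted p = 0.00054), at -2.48 without EV 0 h replicate 1 and -0.98 (adjusted p = 0.0241) without EV 0 h replicate 2. The 6 h fall of -1.13 (adjusted p = 0.0143) came from overlapping groups and was lost without EV 0 h replicate 2 (-0.38, adjusted p = 0.375) or serum 6 h replicate 1 (-0.55, adjusted p = 0.257), after quantile normalization (-0.71, adjusted p = 0.103) and with only the compared groups fitted (adjusted p = 0.104).

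At 12 h of serum the Mxd3 change was 0.44 (limma adjusted p = 0.319), -0.31 without EV 0 h replicate 1 and 1.19 (adjusted p = 0.0091) without EV 0 h replicate 2. Its step from 6 to 12 h of serum was 1.57 (adjusted p = 0.00312), or 0.99 (adjusted p = 0.069) without serum 6 h replicate 1. In the EV line left in doxycycline Mxd3 read 88 and 139 at 12 h, both below the resting libraries (-1.37, adjusted p = 0.0501). That value sat at the threshold: it passed with a pseudocount of 8 (adjusted p = 0.0496), after quantile normalization (0.0475), with equal totals (0.049) and with the replicate number as a block (0.0208), and did not pass with only the compared groups fitted (0.241). It was -2.13 (adjusted p = 0.00152) without EV 0 h replicate 1 and -0.62 (adjusted p = 0.702) without EV 0 h replicate 2. Set against the 12 h doxycycline libraries directly, with no 0 h library used, the serum 12 h libraries were 1.82 higher (adjusted p = 0.000379, 3.52-fold). Mxd3 shares 105 bases, 4.43% of its exons, with Prelid1 on the opposite strand, and Prelid1 was 0.49 higher in serum than in doxycycline at 12 h (adjusted p = 0.000302) and changed by -0.10 at 12 h in the E2F1 line (adjusted p = 0.389). Its part in the Mxd3 values was not tested. Mxd4 and Mxi1 share 6.06% and 2.84% of their exons with opposite-strand genes in the same way.

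The make-up of the MXD transcripts was set per kilobase of exon, so that genes of unequal length can be compared. At 0 h Mxd4 made up 58.7% and 60.7% of the summed level of the 4 genes in the E2F1 line, Mxd3 17.2% and 17.8%, and Mxi1 16.5% and 18.2%. At 12 h of doxycycline Mxd3 made up 69.1% and 73.4%, Mxi1 19.9% and 24.0%, and Mxd4 4.87% and 5.18%. The sum itself went from 1176 and 1204 normalized counts per kilobase at 0 h to 1642 and 1654 at 6 h and to 2778 and 3157 at 12 h. In serum the sum went from 1220 and 1308 at EV 0 h to 334 and 393 at 2 h, and it was still 524 and 579 at 12 h, when Mxd3 held 29.0% and 31.1%. These values depend on the gene length used. With the longest coding transcript in place of all exons, the group-mean sum was 2307 in place of 1190 at 0 h and 5066 in place of 2968 at 12 h in the E2F1 line, and 674 in place of 363 at 2 h of serum. The resting share of Mxd4 in the E2F1 line was then 67.5% in place of 59.7%, and the 12 h share of Mxd3 was 74.7% in place of 71.4%.

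**Figure D3:**
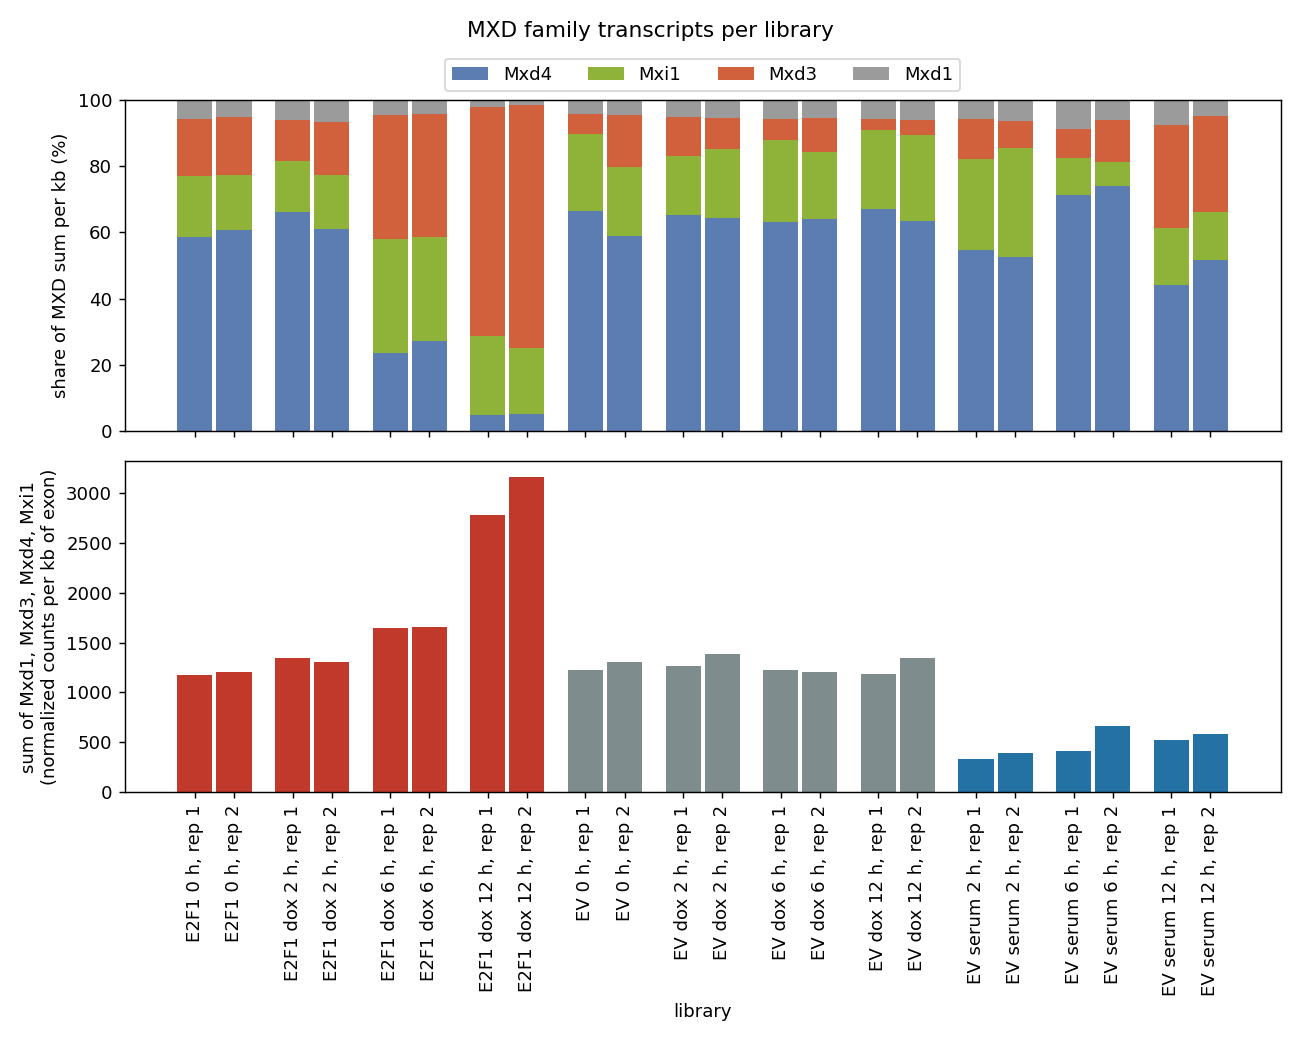
Upper panel: share of Mxd4, Mxi1, Mxd3 and Mxd1 in their summed level per kilobase of exon (y axis, %) in each library (x axis). Lower panel: the sum itself in normalized counts per kilobase of exon (y axis) in the same libraries. Mxd4 is the largest band at rest and Mxd3 is the largest at 12 h in the E2F1 line. In the lower panel all serum libraries stand below all resting ones.

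The E2F1 line was next set against the EV line at the same hours of doxycycline and starvation. The E2F1-line change minus the EV-line change passed for none of the 9 genes at 2 h (0.143% of all genes, 1 gene at an unadjusted p under 0.05), for 6 at 6 h (34.5%) and for 7 at 12 h (50.5%). At 12 h the largest difference was that of Mxd3, 4.71 ± 0.54 (limma adjusted p = 1.2e-06), with changes of 3.34 in the E2F1 line and -1.37 in the EV line. It was 5.46 without EV 0 h replicate 1 and 3.96 without EV 0 h replicate 2, and it passed in both cases. Differences of Mxd4 (-2.31, adjusted p = 3.37e-07), Mxi1 (1.48, adjusted p = 1.28e-05), Mga (-0.66, adjusted p = 0.000285) and Max (-0.61, adjusted p = 0.000193) passed as well, as did that of Myc given above. Mxd1 passed here (-0.70, adjusted p = 0.0298), at 487 and 576 in the EV line against 410 and 348 in the E2F1 line, but lost the call, at adjusted p from 0.097 to 0.11, without E2F1 0 h replicate 1, E2F1 12 h replicate 2, EV 0 h replicate 1 or EV 12 h replicate 2. For Mnt and Mlx at 12 h the differences of 0.26 (95% interval -0.07 to 0.58) and -0.10 (-0.49 to 0.29) did not pass.

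Serum and E2F1 were set against each other directly, as the difference between their changes at the same time, a comparison added after the data were seen. Of the 9 genes 8 differed at 6 h (57.9% of all genes) and 8 at 12 h (48.8%). At 12 h the E2F1 change was lower than the serum change for Myc (-2.06, limma adjusted p = 5.34e-07), Max (-1.31, adjusted p = 5.52e-08) and Mlx (-0.91, adjusted p = 0.00053). It was higher for Mxi1 (3.31, adjusted p = 1.88e-09), Mxd3 (2.90, adjusted p = 0.000258) and Mnt (1.11, adjusted p = 1.3e-05). The Mxd3 difference was 3.65 without EV 0 h replicate 1 and 2.14 without EV 0 h replicate 2. Mxd4 fell under both stimuli, and its difference was 0.29 at 6 h (95% interval -0.21 to 0.79) and -0.66 at 12 h (adjusted p = 0.0268). The latter was lost, at adjusted p from 0.0664 to 0.137, without E2F1 12 h replicate 1, E2F1 0 h replicate 2, EV 0 h replicate 2 or serum 12 h replicate 2. For E2f1 itself the difference was 1.78 at 6 h (limma adjusted p = 2.9e-08) and -0.70 at 12 h (adjusted p = 0.00114). The 12 h comparison is therefore not one of cells with against cells without E2f1 transcript. The lines as well as the stimuli differ in this comparison, and the contributions cannot be told apart.

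With serum against doxycycline in the EV line at the same hour, which uses no 0 h library, 8 of the 9 genes differed at 2 h (67.1% of all genes), 8 at 6 h (65.8%) and 9 at 12 h (70.4%). Myc was 1.56, 1.14 and 1.44 higher in serum (limma adjusted p = 4.6e-08, 2.77e-06 and 1.38e-07). Mxi1 was lower in serum, with differences of -1.21, -2.55 and -1.84 (adjusted p = 8.48e-07, 7.74e-11 and 4.1e-09). Mga at 12 h (-0.25, adjusted p = 0.0168) lost its call without EV doxycycline 12 h replicate 1 (-0.14, adjusted p = 0.235) or serum 12 h replicate 2 (adjusted p = 0.0707).

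Genes known to be activated by MYC rose with serum. Of 24, 22 rose and none fell at 2 h, where 37.5% of all genes rose and 33.5% fell, 23 rose at 6 h (36.5% of all genes) and 24 at 12 h (36%), with a median log2 change of 1.46 at 2 h against 0.03 for all genes. Odc1, the entry enzyme of polyamine synthesis, went from 2519 and 3448 to 16081 and 16299 normalized counts at 2 h (2.46, limma adjusted p = 3.79e-11), and Nolc1, a nucleolar phosphoprotein, rose by 2.39 (adjusted p = 5.6e-14). With equal totals the 2 h counts were 21 up and 2 down. In the E2F1 line Myc itself was below its own 0 h level at 12 h, but overlapped the EV line at 12 h of doxycycline. There 12 of the 24 rose and 6 fell at 12 h, where 31.8% of all genes rose and 29.7% fell. Their median change was 0.30, against -0.016 for all genes. After quantile normalization 9 rose and 8 fell. For the E2F1-line change minus the EV-line change at 12 h, 14 of the 24 were higher and 2 lower, where 50.5% of all genes passed in either direction, with a median of 0.53 against -0.016. The phosphatase gene Cdc25a (1.29, adjusted p = 5.37e-08) and Nop56, of the box C/D ribonucleoprotein (1.05, adjusted p = 8.77e-09), rose most, and the cyclin Ccnd2 (-0.98, adjusted p = 2.62e-08) and Mybbp1a (-0.55, adjusted p = 1.19e-05) fell most. The difference between lines at 12 h also holds a fall in the EV line. There, at 12 h of doxycycline, none of the 24 rose and 4 fell, where 4.17% of all genes passed in either direction. Their median there was -0.24. At 2 h of doxycycline in the EV line 6 rose and none fell, where 4.93% and 2.43% of all genes did, with a median of 0.27. These 24 genes were already unequal at rest: 12 were higher in the E2F1 line at 0 h and none lower, where 15% of all genes passed in either direction.

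**Figure D4:**
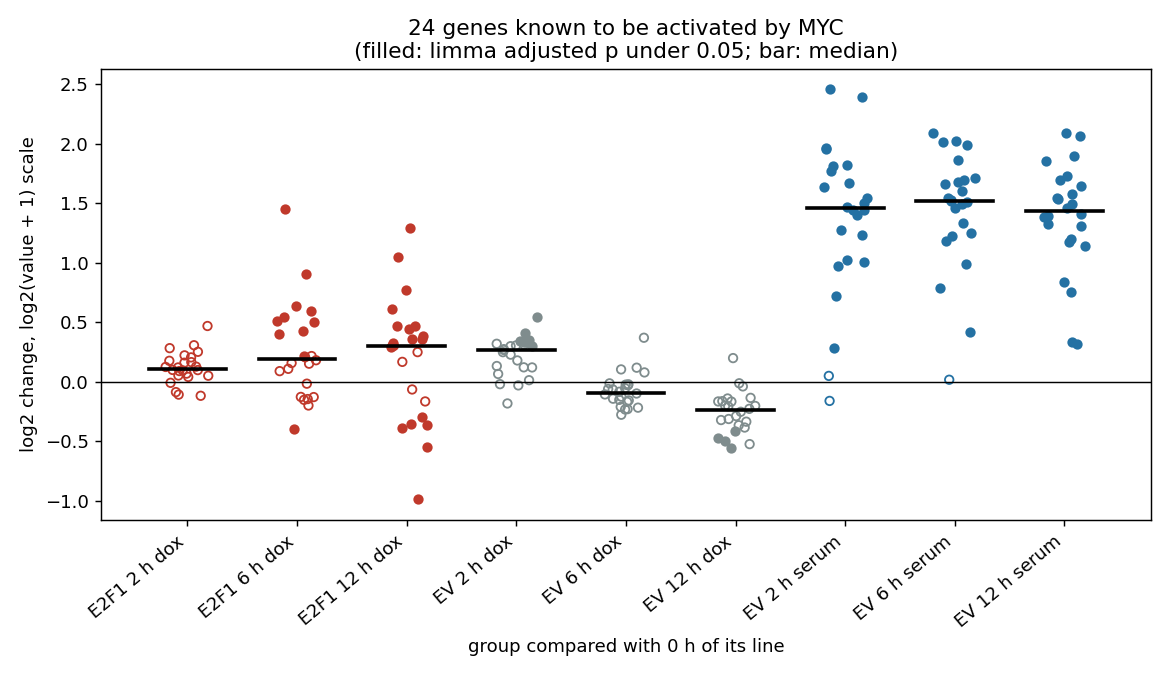
Log2 change (y axis, log2(value + 1) scale) of 24 genes known to be activated by MYC in each group against 0 h of its line (x axis), filled where the limma adjusted p was under 0.05, with the median as a bar. The serum medians lie near 1.5, and the E2F1 12 h points spread on both sides of 0 with 12 above and 6 below that passed.

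Of 8 genes known to be repressed by MYC 5 were in the table, and they did not move as a group. With serum at 2 h 3 rose and 2 fell, where 37.5% of all genes rose and 33.5% fell, with a median of 0.75. Gas1, a growth-arrest gene, fell by 3.47 (limma adjusted p = 1.25e-13) and the CDK inhibitor gene Cdkn1b by 1.54 (adjusted p = 1.24e-10), while Cdkn1a rose by 1.94 (adjusted p = 1.19e-11). Later in serum more of the list fell than rose. At 6 h 1 rose and 3 fell, where 36.5% and 31% of all genes did, with a median of -1.17. At 12 h of serum 1 rose and 3 fell, where 36% and 29.7% of all genes did, with a median of -0.98. At 12 h of E2F1 induction 2 rose and 2 fell, where 31.8% of all genes rose and 29.7% fell, with a median of 0.26. Cdkn1a, the p21 gene, went there from 3066 and 2954 to 15754 and 14293 normalized counts (2.32, adjusted p = 1.2e-11), and Cdkn1b rose by 1.10 (adjusted p = 2.75e-08).

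Cofactors moved in mixed ways. Over all genes 28.8% rose and 22.9% fell at 6 h in the E2F1 line, 31.8% rose and 29.7% fell at 12 h, and 37.5% rose and 33.5% fell at 2 h of serum, with medians of -0.031, -0.016 and 0.03, and the counts of the lists that follow stand beside these. Of 9 corepressor genes used by MXD and MNT, 6 rose and none fell at 6 h in the E2F1 line (median 0.44), with Sap30 at 1.52 (limma adjusted p = 1.22e-06) and Sin3a at 1.34 (adjusted p = 1.71e-10), both subunits of the SIN3 complex. After quantile normalization the 6 h count was 4 up and 1 down. At 12 h in the E2F1 line 6 rose and 2 fell (median 0.80). At 2 h of serum 4 rose and 2 fell, but 3 rose and 5 fell with equal totals, so no direction is given for that list. Sin3a fell there by 0.87 (adjusted p = 1.13e-08). Of 10 MYC coactivator genes 4 rose and 3 fell in the E2F1 line at 6 h (median -0.042). At 12 h 5 rose and 2 fell (median 0.081), and 4 rose and 4 fell after quantile normalization. Actl6a (1.16, adjusted p = 1.86e-08) rose and Trrap, the scaffold of the acetyltransferase complexes, fell (-0.51, adjusted p = 6.47e-05).

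Against 0 h, Mga fell in the E2F1 line at 6 and 12 h, and none of its listed PRC1.6 partners did. Of 9 partners 8 were in the table and all 8 rose at 6 h (median 0.66), where 28.8% of all genes did, and 5 rose at 12 h (median 0.48), where 31.8% did, with none falling, led by Tfdp1 (1.46, limma adjusted p = 1.58e-10), the dimer partner of E2F proteins, and Cbx3 (0.93, adjusted p = 1.57e-08). From 6 to 12 h 2 of the partners rose and 4 fell, where 35.3% of all genes moved. For the E2F1-line change minus the EV-line change, 6 were higher at 6 h and 4 at 12 h. None was lower, where 34.5% and 50.5% of all genes passed in either direction. At 0 h 3 were already higher in the E2F1 line and none lower, where 15% of all genes passed. With serum at 2 h 6 rose and 2 fell (median 0.71). Of 10 factors that set the stability of the MYC protein 7 rose and 2 fell at 12 h in the E2F1 line (median 0.42). The ubiquitin ligase subunit Skp2 rose by 2.27 (adjusted p = 7.78e-11) and the kinase Aurka by 2.07 (adjusted p = 2.7e-05), and the deubiquitinase Usp36 fell (-1.02, adjusted p = 2.66e-08). Usp36 rose at 2 h of serum (2.01, adjusted p = 1.59e-12), where 5 of the list rose and 2 fell (median 0.20), or 4 and 5 with equal totals.

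Txnip and Arrdc4, arrestin genes driven by MLX with the MONDO factors, fell sharply at 2 h of serum, when Mlx was highest. Txnip went from 8768 and 9387 normalized counts at EV 0 h to 221 and 311 at 2 h of serum (-5.11, limma adjusted p = 3.65e-12), and Arrdc4 fell by 3.09 (adjusted p = 1.3e-10). In the E2F1 line at 12 h they fell by 0.83 (adjusted p = 0.00693) and 1.34 (adjusted p = 1.22e-05), when the Mlx change of -0.13 did not pass. Of 7 further network genes 5 were in the table. Mycn, the relative of Myc, was low at 2 h of doxycycline in both lines, at 288 and 359 in the E2F1 line against 928 and 718 at rest (-1.34, adjusted p = 0.0022), and at 397 and 504 in the EV line against 1078 and 1253 (-1.38, adjusted p = 0.000791). The difference between the lines was 0.03 (adjusted p = 0.991).

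Over the 11 group means, genes whose log2 levels followed a network gene most closely were, as a description, Ckap2 (Pearson r = 0.993) and Kif14 (0.987) for Mxd3, both known as mitotic genes. For Myc they were Jrk (0.971) and Akap1 (0.961), for Max Mios (0.994) and Fpgs (0.989), and for Mxi1 Mapk3 (0.982) and Smarcc2 (0.979). Among the network genes Max and Mlx ran together (0.908), and so did Mnt and Mxi1 (0.889), while Mga and Mxd3 ran opposite (-0.925). The points share libraries and scaling.

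In the authors' deposited tables, which list only genes past an absolute log2 change of about 2, network genes appear 4 times. The authors' deposited table for 12 h in the E2F1 line gives Mxd3 at 3.35 (adjusted p = 2.35e-136) and Mxd4 at -2.25 (adjusted p = 5.56e-72). The authors' deposited tables for serum give Mxd4 at -2.02 at 2 h (adjusted p = 2.81e-40) and Mxi1 at -2.58 at 6 h (adjusted p = 1.85e-30). Those adjusted p-values come from the authors' own test.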

How the data were processed

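The analysis used 22 libraries in 11 groups of 2, grouped by the labels. Per the submitters' processing notes, FastQC, Trimmomatic, HISAT2, featureCounts, DESeq2 and the build mm10 were used. Versions, settings, annotation and use of strand are not given in the sources used here. The main table gives a score for each gene and library, namely normalized counts that the authors had scaled and rounded to whole numbers, per the file headers. No count model was run on it. The authors also deposited tables of log2 fold changes, and the same tables hold adjusted p-values, as deposited, for genes past a limit.

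The scale was log2(value + 1), and the model was fitted by limma 3.58.1 (R 4.3.3). A mean for each group was fitted to all 22 libraries (11 residual degrees of freedom, empirical Bayes with a mean-variance trend). Benjamini-Hochberg adjustment ran over 11208 genes in each of 21 comparisons, with a threshold of 0.05. A filter of at least 10 in 2 libraries removed none. The code was tested on simulated data. Fold changes are on the log2(value + 1) scale. Alternatives were quantile normalization, equal totals, a pseudocount of 8, no filter, a replicate block, a fit to the compared groups alone, a 2-fold minimum, and the omission of each library in turn, whose lone partner was then assumed to vary like the other groups.

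The network genes were chosen by name, by a rule that used no measured value. They and the gene lists were nevertheless set with earlier results of these data known. All network genes are named. In each list the genes named are up to 2 with the largest rise and 2 with the largest fall among those that passed with libraries that do not overlap, and for likeness the 2 with the highest r. The values of Ddx3y and of the genes that overlap a network gene were chosen after they were seen. Gene positions and exon lengths are from GENCODE M21 (GRCm38), and promoters from RefSeq (GRCm38.p6). Tables and figures were made in Python 3.11.15 (pandas 2.3.3, matplotlib 3.10.9). The depth of the libraries in reads is unknown.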

Additional observations from a re-analysis of the deposited data

Results flagged for a closer look

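The doxycycline change of a network gene differed between the E2F1 line and the EV line, by a test of the difference itself with limma, in 13 cases. These are the differences of log2 changes (E2F1 line minus EV line). At 6 h they were -0.58 for Max (adjusted p = 0.000547), -0.50 for Mga (adjusted p = 0.00468), 0.63 for Mnt (adjusted p = 0.00395), 1.43 for Mxi1 (adjusted p = 3.45e-05), 1.88 for Mxd3 (adjusted p = 0.0119) and -0.74 for Mxd4 (adjusted p = 0.0215). The 6 h difference of Mxd3 was 1.54 (adjusted p = 0.0621) without EV 6 h replicate 1, 1.13 (adjusted p = 0.0829) without EV 0 h replicate 2 and 2.63 without EV 0 h replicate 1. That of Mxd4 lost its call without E2F1 6 h replicate 1 (adjusted p = 0.0885), E2F1 0 h replicate 2 (0.0665), EV 6 h replicate 1 (0.053) or EV 0 h replicate 2 (0.0612). At 12 h the differences were -0.62 for Myc (adjusted p = 0.0225), -0.61 for Max (adjusted p = 0.000193), -0.70 for Mxd1 (adjusted p = 0.0298), 4.71 for Mxd3 (adjusted p = 1.2e-06), -2.31 for Mxd4 (adjusted p = 3.37e-07), 1.48 for Mxi1 (adjusted p = 1.28e-05) and -0.66 for Mga (adjusted p = 0.000285). Of these, Myc and Mxd1 each lost the call without any of 4 of the 8 libraries.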

How the results depend on the processing

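Of 109 network values that passed, 99 passed under all 6 other settings (pseudocount, filter, scalings, replicate block and groups fitted), 10 did not under at least 1, and 0 reversed. 91 passed whichever library was left out. With at least a 2-fold change required, the number of network genes that passed was 0 at 2 h, 2 at 6 h and 3 at 12 h in the E2F1 line, 0 in the EV line at 2 h of doxycycline, 3 at 12 h of serum, 2 at 6 h and 3 at 12 h for the difference between lines, 5 for E2F1 against serum at 12 h, 5 at 6 h and 5 at 12 h for serum against doxycycline, 2 for the E2F1 step from 6 to 12 h, and 1 for each serum step. Between the lines at 0 h the count of 0 became 1 after quantile normalization, 1 with equal totals and 2 with only the groups compared. In the EV line at 12 h of doxycycline the count of 0 became 1 with a pseudocount of 8, 1 after quantile normalization and 1 with equal totals. In the EV line at 2 h of doxycycline it was 0 with only the groups compared. Leaving out a library gave 0 to 1 between the lines at 0 h, 3 to 4 for the E2F1 step from 6 to 12 h, 0 to 0 at 2 h in the E2F1 line, and 0 to 1 in the EV line at 12 h.

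Signs turned for Mga at 2 h of serum (-0.22 after quantile normalization, -0.21 with equal totals) and for Myc at 6 h in the E2F1 line (-0.17 and -0.092; -0.16 to 0.21 without a library). Without a library, the difference between lines ran from -0.19 to 0.18 for Myc at 6 h and from -0.21 to 0.018 for Mlx at 12 h, and Mxd3 at 12 h of serum from -0.31 to 1.19. Except for scalings and omitted libraries, the cause was not tested.

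Libraries with the same replicate number deviated together in 18 of 55 pairs of groups (r over 0.1, range -0.28 to 0.45). They did so among the EV doxycycline groups at 0, 6 and 12 h (r from 0.303 to 0.455) and the E2F1 groups at 0, 6 and 12 h (0.142 to 0.357), but not between those and the doxycycline 2 h group of the same line, and no label says what a number marks. The number was therefore not taken as pairing the libraries, and this is open for those groups. With the replicate block, the count in the EV line at 12 h of doxycycline was 1 (Mxd3, adjusted p = 0.0208 in place of 0.0501 in limma), that for serum against doxycycline at 6 h was 9 in place of 8, and counts over all genes kept within 1.17 times except the 2 h difference between lines, 33 in place of 16. With 2 libraries a group, the spread between libraries limits the precision.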
